A study of Mus musculus with 3 samples.

Results

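The pericentral Wnt zonation genes are 10 mouse genes whose expression in the liver lobule is tied to Wnt signalling around the central vein: Glul, Oat, Slc1a2, Rhbg, Axin2, Rnf43, Znrf3, Lgr5, Tbx3 and Lect2. They were taken by name from the GENCODE M1 annotation of the NCBI37/mm9 genome, where all 10 were found among 22367 protein-coding genes, and binding of RXRα and RARα was read within 10 kb of each gene start and over each gene body. The data were 3 chromatin libraries of liver tissue from wild type C57BL/6 mice, all male and aged 3 months, with no treatment named. One was precipitated with an anti-RXRα antibody, one was the input chromatin of the RXRα experiment, which was not precipitated, and one was precipitated with an anti-RARα antibody. There was 1 library per antibody and no replicate, so the values describe these libraries, no test between libraries was possible, and intervals, unless stated otherwise, are 95% exact intervals that cover counting error only. Whole liver was used, so binding in the few hepatocytes next to the central vein cannot be told apart from binding in the rest of the lobule.

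Hepatocytes divide their work along the axis of the liver lobule. Around the central vein, Wnt ligands from endothelial cells bind Frizzled and Lrp receptors, β-catenin is spared from degradation, and it acts with TCF factors on genes for glutamine synthesis, ammonium uptake and the feedback control of the pathway itself. RXRα is the shared partner of many nuclear receptors, and RARα is its partner that responds to retinoic acid. Nuclear receptors recognise hexamers such as AGGTCA, often as direct repeats, whereas TCF factors recognise sites such as CTTTGAT.

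The RXRα and input tracks summed to 9999939 and 9999292 reads, which the intervals take as counts. For RXRα the study reports a larger number of uniquely mapped reads, so this total is not the full depth of that library. The study reports more again for RARα, whose peak list gives no depth, so RXRα regions and RARα peaks rest on unlike depths. An RXRα region was a run of 32 bp bins with at least 20 times the input, where the input was taken as no lower than its genome mean of 0.603 per bin, and 42117 such regions were found in the genome, with a median ratio of 34.8. Of 143280 RARα peaks, 32946 had a score above 20, with a median score of 33, and these are called filtered peaks below. A filtered peak and an RXRα region were called co-localized when they shared at least 25% of the narrower of the intervals. Genes of the liver identity list, such as Alb and Hnf4a, had an RXRα region within 10 kb of the start in 8 of 8. A filtered RARα peak was found there in 7 of 8, with Hnf4a as the exception, whose highest score was 20. In the list of genes of other tissues, 1 of 8 had an RXRα region and 1 of 8 a filtered RARα peak. Both lists were chosen with earlier results of these data known.

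RXRα was found near most of the pericentral Wnt zonation genes and RARα near a similar number, and a co-localized pair stood at some of them. Within 10 kb of the gene start, 7 of the 10 genes had an RXRα region (Glul, Tbx3, Rnf43, Znrf3, Lgr5, Oat and Lect2), where 39.8% of all protein-coding genes did. At Rnf43, Znrf3 and Lgr5 the bin of highest ratio had a signal of 14 over 0 input, where 13 was the lowest signal that passed. Axin2, with 12 over 0 input (a ratio of 19.9), was not counted, so these calls turned on small differences. A filtered RARα peak was found near 6 (Glul, Tbx3, Rnf43, Znrf3, Oat and Rhbg), against 52.2% of all genes, a share close to the background. Co-localization was found at 3 of the 10, namely Glul, Tbx3 and Znrf3, against 23.5% of all genes, which is also close to the background. Over the gene body, 10 of 10 had an RXRα region, against 33.9% of all genes, 6 had a filtered RARα peak, against 42.5%, and 5 had a co-localized pair, against 17.7%. The single body regions of Axin2 and Lgr5 also rested on a bin of 14 over 0 input. The body counts rise with gene length, and the median length was 37.4 kb for the 10 genes and 15.4 kb for all genes. Among genes at least as long as 37.4 kb, whose own median was 79.3 kb, 59.5% had an RXRα region, 61.8% a filtered RARα peak and 27.8% a co-localized pair. Among genes within the range of length of the 10, with a median of 24.8 kb, these shares were 42.1%, 51.8% and 21.8%. The RARα count of 6 in 10 was close to the share in both sets. Per 100 kb of body the 10 genes held 3.94 RXRα regions, genes within their range of length 3.07 and all genes 2.31.

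Reads counted over the 10 kb on both sides of the start gave the order of the genes. Glul stood highest, with 506 RXRα and 106 input reads and a ratio of 4.77 (3.86 to 5.94), at percentile 97.9 of all genes. Tbx3 followed at 3.01 (2.35 to 3.89), Lect2 at 2.86 (2.26 to 3.66) and Oat at 2.77 (2.26 to 3.40). Axin2, Znrf3, Rnf43 and Lgr5, which act in the pathway itself, lay lower in this window, with 1.76 (1.31 to 2.39) for Axin2, 1.62 (1.29 to 2.04) for Znrf3, 1.47 (1.18 to 1.83) for Rnf43 and 1.46 (1.10 to 1.96) for Lgr5. Rhbg, at 1.11 (0.829 to 1.48), was at the median of all genes, 1.09, and Slc1a2, with 30 RXRα and 43 input reads, was below it at 0.698 (0.423 to 1.14). Of the 9 steps between neighbours in this order, the 95% interval of the fold, by a normal approximation on the log scale, left out 1 at Glul over Tbx3 (1.59, 1.15 to 2.19) and at Oat over Axin2 (1.57, 1.10 to 2.24), and the other neighbours did not differ beyond counting error. The median ratio over the 10 genes was 1.69.

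**Figure D1:**
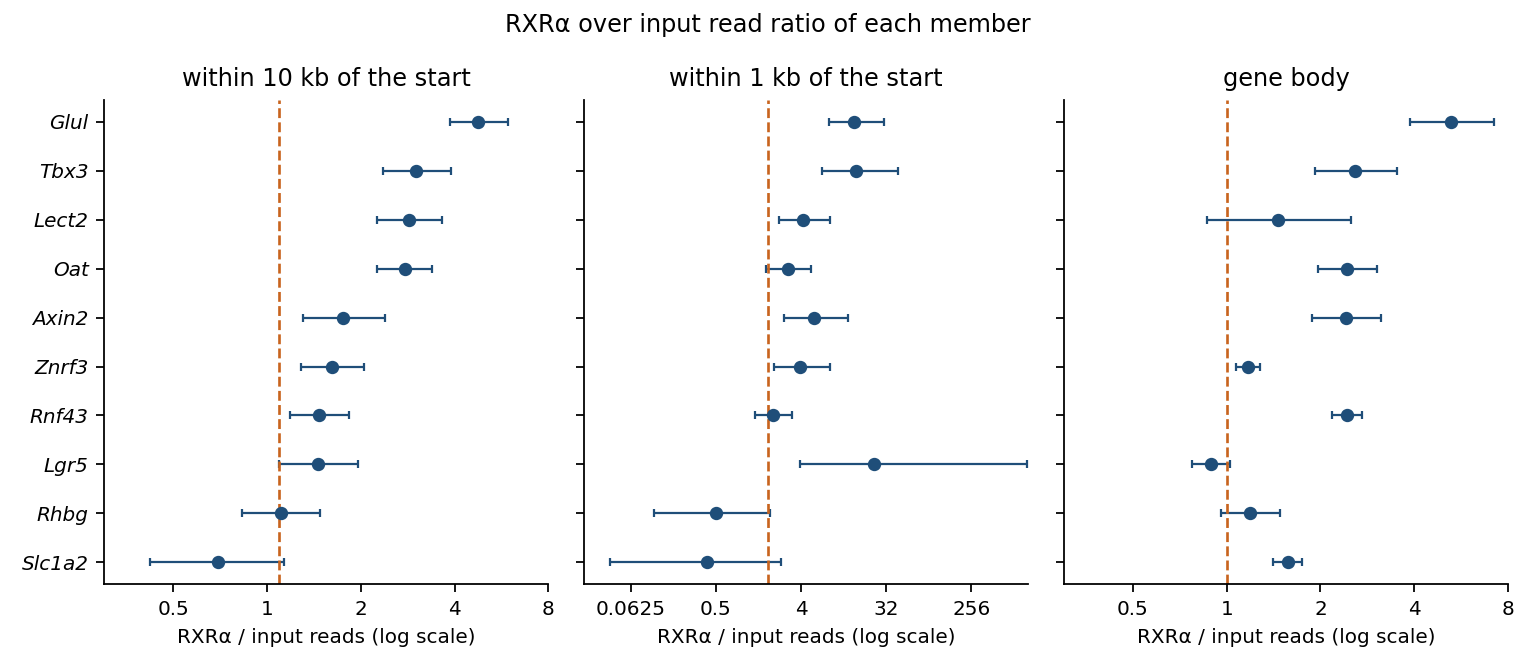
RXRα over input read ratio of each gene (points, log scale) within 10 kb and within 1 kb of the gene start and over the gene body, with 95% exact intervals (bars, counting error only) and the median of all 22367 protein-coding genes in the same window (dashed line). Glul is highest within 10 kb and over the body, and Slc1a2 and Rhbg lie below the dashed line within 1 kb of the start.

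Within 1 kb of the start the ratios rested on few input reads, and they were higher than in the wider window for 8 of the 10 genes, by little for Oat (2.89), and lower for Slc1a2 (0.40) and Rhbg (0.50). There, Glul had 162 RXRα and 11 input reads (14.7, 8.02 to 30.1) and Tbx3 had 91 and 6 (15.2, 6.70 to 42.4). Lgr5 had the highest ratio, 24.0, but from 24 RXRα reads and 1 input read, so that its interval ran from 3.91 to 987. Slc1a2 (2 and 5 reads) and Rhbg (4 and 8 reads) were the only genes of the 10 with fewer RXRα than input reads there. Over the body, Glul was again highest, at 5.25 (3.88 to 7.24), and Lgr5 was lowest, at 0.890 (0.774 to 1.02). Rnf43 (2.43, 2.18 to 2.72) and Axin2 (2.42, 1.88 to 3.13) were level with Oat (2.43, 1.97 to 3.03) over the body, so the order depended on the window. The ratio was above 1 in all 3 windows for 7 of the 10 genes, and the share of all genes with this was not computed. The median over all genes was itself 1.09 within 10 kb, 1.79 within 1 kb and 1.0 over the body. Lgr5 fell below 1 in its body, and Slc1a2 and Rhbg did so around the annotated start, where Rhbg was below 1 within 1 kb only.

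**Figure D2:**
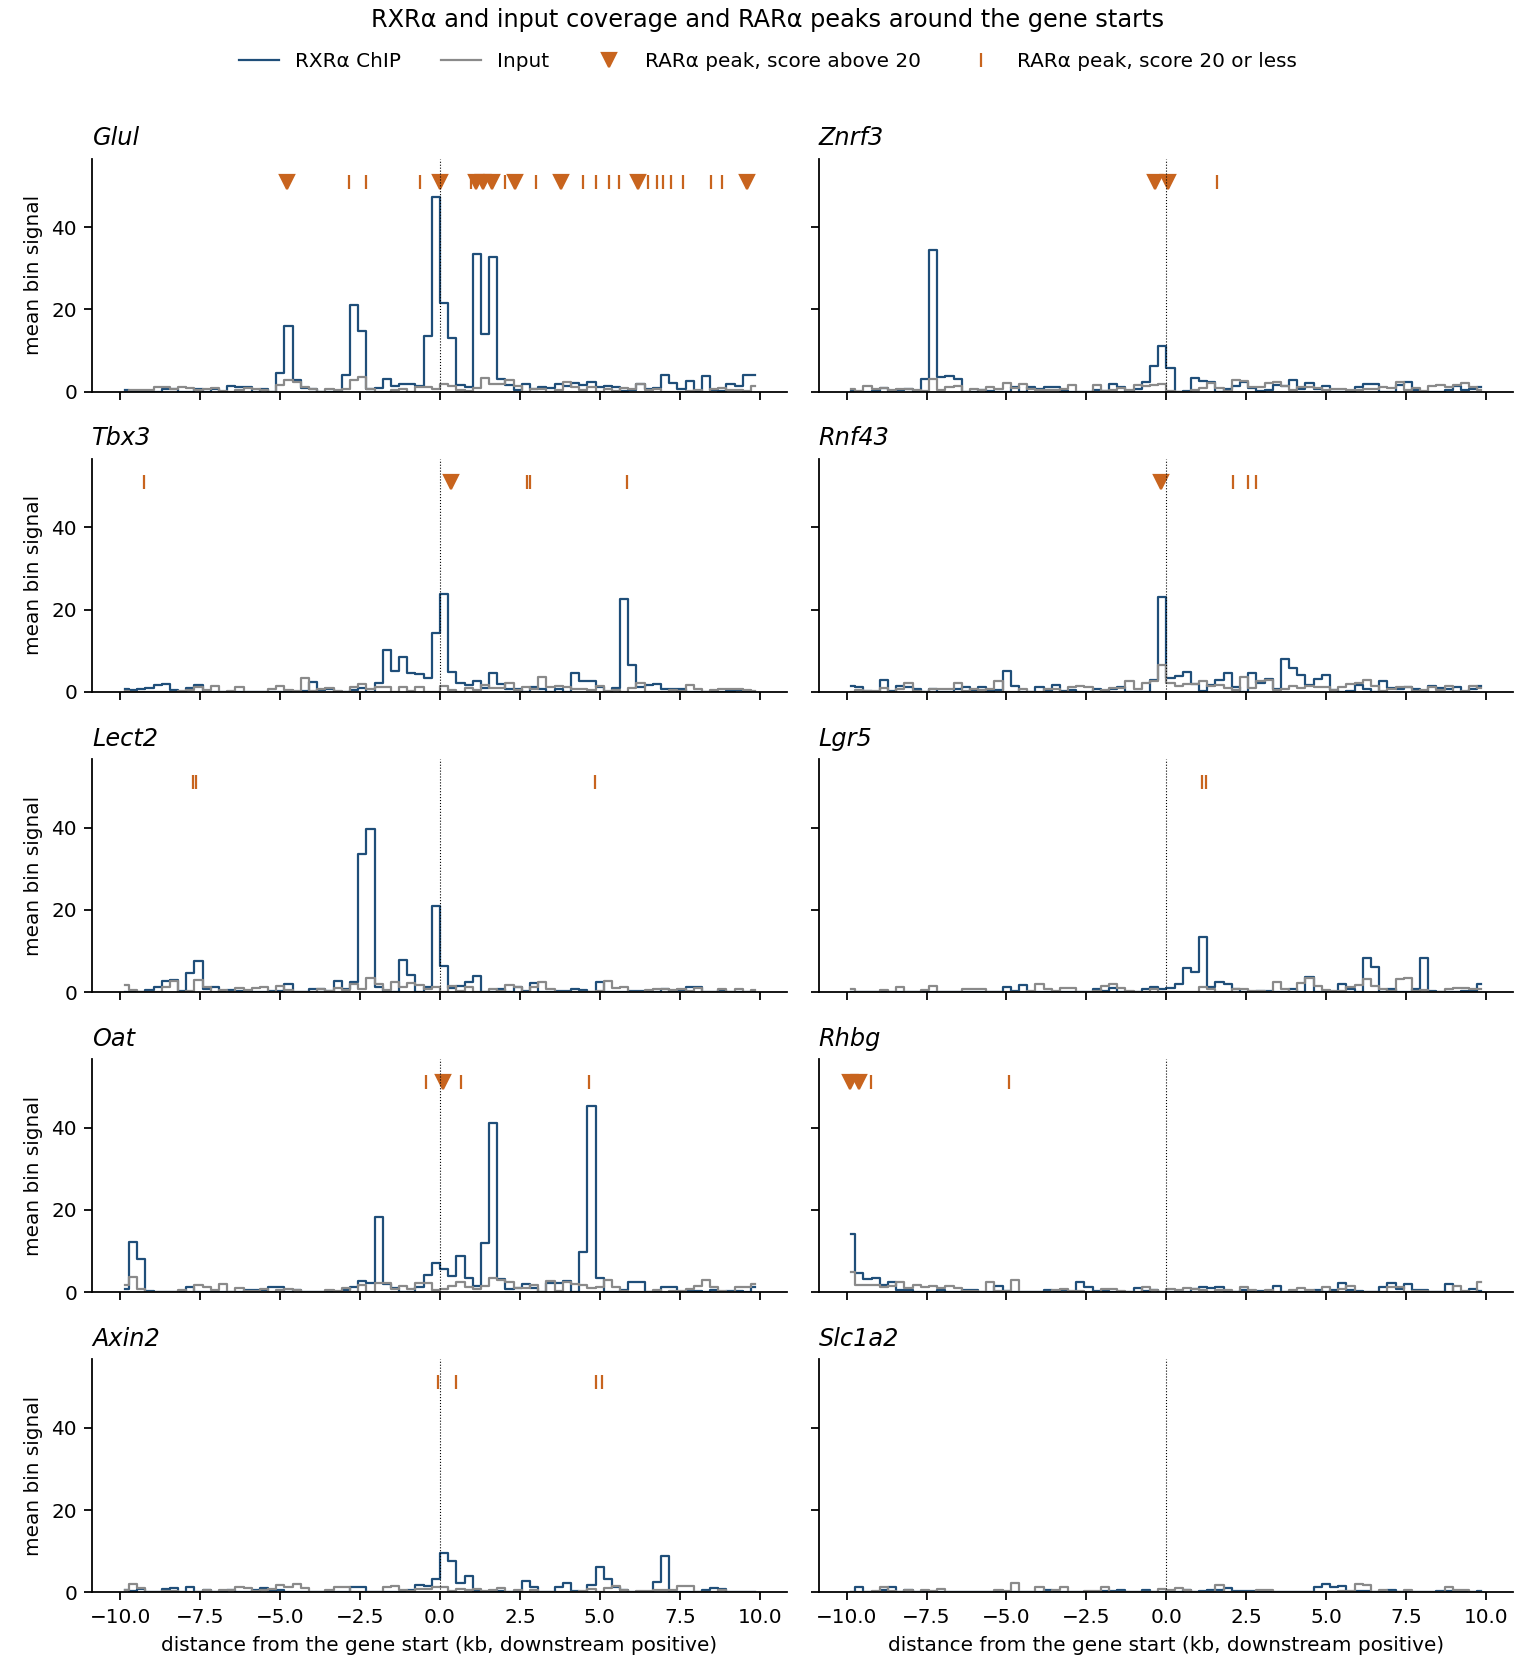
Mean signal per 32 bp bin (vertical axis) of RXRα ChIP (blue) and input (grey), averaged over 256 bp, against the distance from the gene start in kb, with RARα peak summits as orange marks at the top (triangles for a score above 20, ticks for 20 or less). Glul and Oat reach the highest averaged RXRα signal, 47.2 and 45.2, whereas Slc1a2 stays at or below 2.12.

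Altogether 31 RXRα regions were counted for the 10 genes by distance or position in the body, of which 15 lay within 10 kb of the start and 25 had their midpoint in the gene body. For some, another gene's start was nearest, namely Supt4h1 for the Rnf43 regions at +38.7, +41.7 and +47.1 kb, Kremen1 for the Znrf3 regions at +118.5 and +147.6 kb, Gm17285 for the Rhbg region, and Teddm1 or 5830403L16Rik for the Glul regions away from its start. By annotation, 25 lay in introns, 3 in UTRs and 3 outside genes. The input was 0 in the highest bin of 22 of the 31, so that in these the ratio was set by the mean input, and the reads of the 500 bp around the highest bin are given as a check. Of the 31 regions, 10 were co-localized with a filtered RARα peak, 4 of them at Glul, where 10558 of all 42117 RXRα regions were. A RARα peak of any score overlapped 14 of the 31, and the share of all regions with this was not computed. Of the 25 filtered RARα peaks of these genes, 10 were co-localized, where 32.2% of all filtered peaks were.

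**Figure D3:**
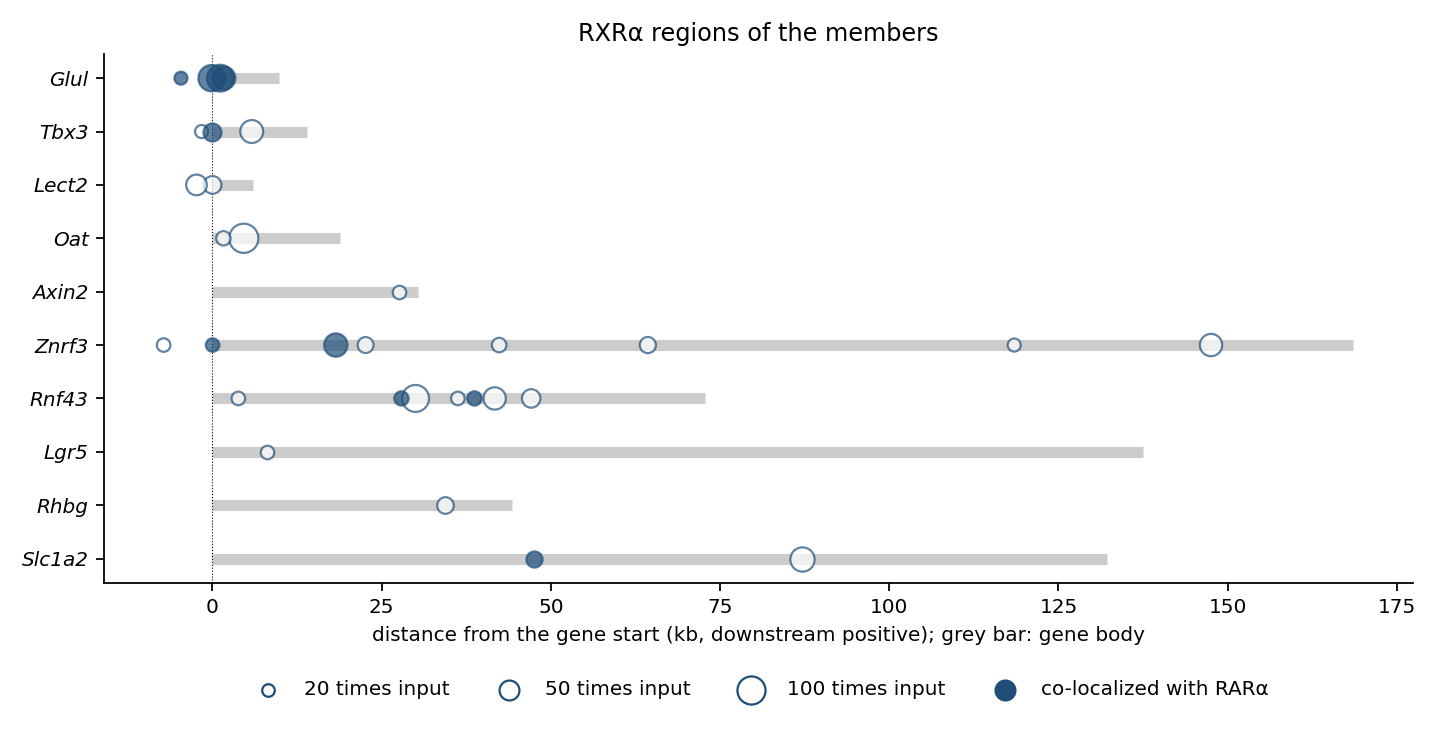
RXRα regions (circles, area in proportion to the highest bin's ratio to input) along the 10 genes by distance from the gene start in kb, with gene bodies as grey bars and filled circles for regions co-localized with a filtered RARα peak. The regions of Glul lie at its start, whereas those of Rnf43, Znrf3 and Slc1a2 spread over the body.

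Glul encodes glutamine synthetase, the enzyme that captures the ammonia left at the end of the lobule. It lies at chr1:155747074-155756853 on the plus strand, and the starts of 5830403L16Rik, Teddm1 and A930039A15Rik lie within 10 kb, so reads near its start count for them too. Its 4 RXRα regions were all co-localized with RARα. The region over the promoter had its highest bin at −178 bp, with a ratio of 87.9, and 107 RXRα against 3 input reads in 500 bp (35.7, 11.9 to 176). The highest ratio was 91.3 at +1230 bp in the first kilobases of the gene, with 75 against 6 reads, and a further region stood at +1710 bp (66.4). The weakest, at −4658 bp, had a ratio of 21.6, with 32 against 8 reads.

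RARα peaks were dense over Glul. The peak with its summit 1 bp from the start had a score of 168, the highest of the 10 genes and at percentile 99.5 of filtered peaks, and the peak at −4794 bp had 83. The other 7 filtered peaks scored 22 to 31. Among the filtered peaks, only that of score 168 was nearest to the Glul start. The others were nearest to the start of Teddm1, 5830403L16Rik or A930039A15Rik. With weaker peaks included, 26 summits lay within 10 kb of the start, and peaks covered 84.8% of the Glul body, at percentile 99.0 of all genes. Many of these peaks abutted. When peaks at most 10 bp apart were joined, the 22 over the body formed 5 stretches, the longest of 4470 bp, so peak counts are not counts of separate sites. The promoter window of 201 bp is shown because it lies within the RARα peak of highest score of the set. It lies at chr1:155746796-155746996 of NCBI37/mm9, reads in the direction of the gene, has a GC content of 66.2% and held none of the motifs searched. The same RARα peak held 2 AGGTCA hexamers within 100 bp of its summit, past the end of this window, at chr1:155747002-155747007 and at chr1:155747148-155747153.
Glul promoter window: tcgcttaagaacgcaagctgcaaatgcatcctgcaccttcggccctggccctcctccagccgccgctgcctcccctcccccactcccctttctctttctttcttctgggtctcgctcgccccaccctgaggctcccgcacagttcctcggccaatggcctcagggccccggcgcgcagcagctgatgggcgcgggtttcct

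Oat encodes ornithine aminotransferase, which converts ornithine to glutamate semialdehyde. It lies at chr7:139749158-139768081 on the minus strand, within an annotation of Fgfr2 that spans it. Its intronic region at +4705 bp had the highest ratio of all 31, 107.9, with 89 RXRα and 2 input reads (44.5, 12.0 to 373). A narrower region at +1633 bp reached 26.0, with 84 against 9 reads. RARα was elsewhere: its filtered peak, with a score of 73, sat 81 bp after the start, and the peak over the +4705 bp region scored 16 and did not pass the threshold. The window around the intronic region, chr7:139763276-139763476 on the minus strand, is shown as that of the highest ratio. Capitals in this and the following windows mark nuclear receptor hexamers on either strand, which were AGGTCA and the related GGGTCA with the less common AGTTCA and also GGTTCA, and TCF sites on either strand, which were CTTTGAT with the variant CTTTGAA. Here they mark 2 hexamers on opposite strands.
Oat intron window: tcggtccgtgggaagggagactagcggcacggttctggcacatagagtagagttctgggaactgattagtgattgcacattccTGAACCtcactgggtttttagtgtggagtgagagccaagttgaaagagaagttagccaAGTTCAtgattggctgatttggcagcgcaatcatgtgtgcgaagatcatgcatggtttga

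Slc1a2 encodes a glutamate transporter that is known from astrocytes and, in the liver, from perivenous hepatocytes. It lies at chr2:102498816-102630941 on the plus strand. Around the annotated gene start there was no RXRα enrichment, with 0 RXRα and 4 input reads in the 500 bp on each side. At an internal transcript start 47697 bp downstream, the same window held 31 RXRα and 3 input reads (10.3, 3.22 to 52.8). The region at this place, with its highest bin at +47600 bp and a ratio of 33.2, was co-localized with a RARα peak of score 24. A stronger region, which no RARα peak overlapped, lay at +87.1 kb, with a ratio of 74.7 and 63 against 3 reads. The RARα peak of highest score over this gene, 41, had its summit at +85464 bp and overlapped no RXRα region.

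RARα peaks were more numerous over Slc1a2 than over any other of the 10 genes. Its body held 82, from +23749 bp to +131774 bp, with a median score of 10, and 4 of them scored above 20. As many were found in the body of 66 protein-coding genes, or 0.295%, without regard to length. The peaks covered 19.4% of the Slc1a2 body, at percentile 90.4 of all genes, and numbered 6.21 per 10 kb, against 22.5 over Glul. Joined by the same rule, the 82 peaks formed 58 stretches, the longest of 1080 bp. None of the peaks lay within 10 kb of the annotated start. The RXRα ratio over the same body was 1.57 (1.41 to 1.75). The window at the internal start, chr2:102546316-102546516 on the plus strand, is shown because the co-localized pair of this gene lies there, and its capitals mark a TCF site read on the opposite strand.
Slc1a2 internal start window: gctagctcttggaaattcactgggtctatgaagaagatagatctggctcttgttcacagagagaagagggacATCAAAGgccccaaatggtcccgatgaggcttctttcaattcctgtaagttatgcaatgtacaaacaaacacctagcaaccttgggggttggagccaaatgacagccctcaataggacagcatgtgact

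Rhbg encodes an ammonium transporter of the Rh family. It lies at chr3:88046796-88091132 on the minus strand, and its annotated gene start is 32501 bp upstream of the start of a shorter coding transcript. The gene start itself had 1 RXRα and 3 input reads in the 500 bp on each side, whereas the start of the shorter transcript had 19 and 3 (6.33, 1.86 to 33.4). Its single RXRα region had its highest bin at +34284 bp, in an intron of the shorter transcript, with a ratio of 34.8. The 500 bp there held 35 RXRα reads and 0 input reads, which is 11.7 times a floor of 3 input reads, and the exact lower limit of the ratio was 8.996. No RARα peak of any score overlapped it. The filtered RARα peaks counted for Rhbg, with scores of 45 and 52, had their summits at −9613 and −9883 bp, nearest to the starts of 1700021C14Rik and Cct3.

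The Rhbg region was the only one of the 31 with a direct repeat, of the form DR3, which is a pair of hexamers with 3 bases between them. It read AGTTCACAGAGGTCA on the plus strand of chr3:88056878-88056892, 37 bp from the centre of the highest bin. DR3 was found in 0.271% of all RXRα regions. In the window below, chr3:88056748-88056948 on the minus strand, it appears as its reverse complement, followed by a TCF site and a further hexamer.
Rhbg intron window: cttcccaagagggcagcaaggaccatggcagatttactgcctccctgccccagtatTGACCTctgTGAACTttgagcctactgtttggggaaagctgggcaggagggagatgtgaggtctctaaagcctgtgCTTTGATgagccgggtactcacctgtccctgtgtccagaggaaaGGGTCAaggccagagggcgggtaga

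Axin2, a scaffold of the complex that degrades β-catenin and a classical feedback target of the pathway, lies at chr11:108781663-108812097 on the plus strand. RXRα was present at its start without reaching 20 times input in any bin. The 500 bp on each side of the start held 35 RXRα and 6 input reads (5.83, 2.43 to 17.0), and those around the transcript start 451 bp downstream held 39 and 4 (9.75, 3.52 to 37.6). Its single region, at +27.6 kb in an intron, had a ratio of 23.2, with 16 against 3 reads. None of its RARα peaks passed the threshold, and the highest, at −68 bp, scored 18.

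Rnf43 and Znrf3 encode paired ubiquitin ligases that remove Frizzled receptors from the cell surface. Both had long series of RXRα regions in their introns. Rnf43, at chr11:87476224-87549041 on the plus strand, held 7 in its body. The strongest had its highest bin at +30000 bp, with a ratio of 92.0 and 116 RXRα against 4 input reads (29.0, 11.0 to 108), and no RARα peak overlapped it. The regions at +27.9 and +38.7 kb, both with a ratio of 26.0, were co-localized with RARα peaks of score 22 and 31. The start of Rnf43 carried a RARα peak that scored 75, with its summit at −169 bp, but no RXRα region, since 53 RXRα reads stood against 20 input reads there (2.65, 1.56 to 4.68). The window of that region, chr11:87506124-87506324 on the plus strand, is shown as the one with the most RXRα reads of the 31, and held a pair of AGGTCA hexamers, the first at the centre of the highest bin.
Rnf43 intron window: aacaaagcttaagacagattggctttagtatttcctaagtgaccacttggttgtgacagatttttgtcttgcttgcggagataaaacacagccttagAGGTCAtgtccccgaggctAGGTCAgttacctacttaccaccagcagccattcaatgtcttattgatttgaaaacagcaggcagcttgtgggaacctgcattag

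Znrf3, at chr11:5176327-5344850 on the minus strand, had 8 regions, of which 7 were in its body and 1 lay at −7.2 kb. The region at the start was weak, with a ratio of 23.2 and 24 against 3 reads, and was co-localized with a RARα peak of score 29. The strongest, at +18.2 kb, reached 69.0, with 102 against 8 reads (12.7, 6.23 to 30.3), and was co-localized with a peak of score 27. The region at +147.6 kb reached 63.0, with 82 against 7 reads, and overlapped a RARα peak that scored 15. The RARα peak of highest score over Znrf3, 53 at +154.0 kb, overlapped no RXRα region, and the nearest gene start was that of Kremen1. The window at +147.6 kb, chr11:5197196-5197396 on the minus strand, is shown because a TCF site lies at the centre of its highest bin between 2 hexamers.
Znrf3 intron window: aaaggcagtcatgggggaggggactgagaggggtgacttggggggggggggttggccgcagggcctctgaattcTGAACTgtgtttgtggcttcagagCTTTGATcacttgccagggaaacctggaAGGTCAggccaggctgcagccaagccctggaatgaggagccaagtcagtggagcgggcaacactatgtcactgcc

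Lgr5 encodes a receptor for R-spondins, the ligands that protect Frizzled from Rnf43 and Znrf3. It lies at chr10:114887367-115024836 on the minus strand and had the lowest density of RXRα regions, 0.727 per 100 kb of body. Its single region, at +8.1 kb, had a ratio of 23.2, with 14 RXRα reads against 1 input read, and held an AGGTCA hexamer. Around the transcript start 287 bp downstream of the gene start, 16 RXRα and 0 input reads were counted in the 500 bp on each side. No filtered RARα peak belonged to Lgr5, and its 3 weaker peaks scored 7 to 10.

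Tbx3 encodes a T-box transcription factor that is a target of β-catenin in the liver. It lies at chr5:120120678-120134733 on the plus strand. RXRα and RARα were co-localized at its start, where the region had a ratio of 41.5, with 60 against 2 reads in 500 bp (interval of the ratio 7.95 to 253), and the RARα peak scored 74. A stronger region in an intron at +5802 bp had a ratio of 66.4. It held 47 RXRα reads and 0 input reads, which is 15.7 times a floor of 3 input reads, with an exact lower limit of 12.2, and the RARα peak over it scored 10. Its window, chr5:120126380-120126580 on the plus strand, is shown because a TCF site overlaps a hexamer there by 4 bases.
Tbx3 intron window: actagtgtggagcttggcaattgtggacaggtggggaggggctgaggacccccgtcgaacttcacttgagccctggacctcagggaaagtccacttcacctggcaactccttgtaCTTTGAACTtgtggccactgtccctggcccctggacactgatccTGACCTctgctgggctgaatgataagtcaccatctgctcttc

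Lect2 encodes a protein that hepatocytes secrete into the blood. It lies at chr13:56643821-56649899 on the minus strand and had RXRα regions but no filtered RARα peak. The region at the start had a ratio of 39.8, with 42 against 2 reads (21.0, 5.46 to 179), and the region upstream at −2373 bp had 54.0, with 113 against 4 reads (28.2, 10.7 to 105). No RARα peak overlapped either region, and its highest RARα score within 10 kb was 15. The upstream window, chr13:56652172-56652372 on the minus strand, is shown because it held a TCF site without any hexamer.
Lect2 upstream window: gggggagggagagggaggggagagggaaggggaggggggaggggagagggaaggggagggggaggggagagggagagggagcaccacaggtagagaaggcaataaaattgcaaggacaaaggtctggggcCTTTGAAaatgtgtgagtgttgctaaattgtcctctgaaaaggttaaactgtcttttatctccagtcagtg

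**Figure D4:**
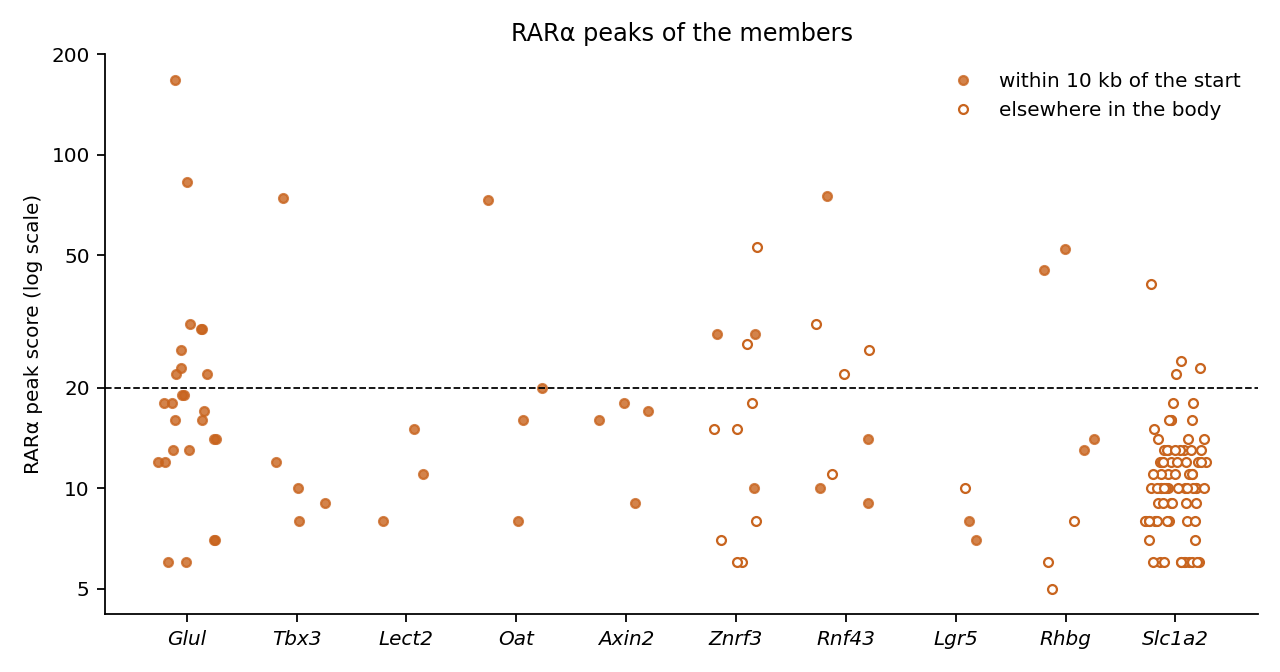
Scores of all 154 RARα peaks of the 10 genes (log scale), as filled points within 10 kb of the start and open points elsewhere in the body, with the threshold of 20 as a dashed line and points spread sideways for legibility. Glul has the highest score, 168, Slc1a2 has many low scores, and none of the peaks of Axin2, Lgr5 and Lect2 passes the threshold.

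The order of the genes by highest RARα score differed in part from that by RXRα ratio within 10 kb, with Glul first in both. Glul, Rnf43, Tbx3 and Oat had their highest scores, 168, 75, 74 and 73, at most 337 bp from the start. Lect2, next after Tbx3 by RXRα ratio, had no filtered RARα peak, and neither did Axin2 or Lgr5. At the strongest intronic regions of Oat and Tbx3 a RARα peak was called but scored 16 and 10, whereas the strongest of Znrf3 was co-localized with a filtered peak of score 27. That of Glul was co-localized too. No RARα peak of any score overlapped the strongest intronic regions of Rnf43, Slc1a2, Rhbg, Axin2 and Lgr5.

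The sequences of the 31 regions were compared with those of all RXRα regions in windows of 201 bp. A TCF site was found in 9 of the 31, or 29.0%, against 9.68% of all RXRα regions and 7.82% of windows 500 bp beside them. The 9 belonged to 6 genes, with 3 in Znrf3, 2 in Lect2 and 1 each in Tbx3, Rnf43, Slc1a2 and Rhbg. Glul, Oat, Axin2 and Lgr5 had none. A hexamer was found in 17 of the 31, or 54.8%, against 64.8% of all regions and 37.6% of the windows beside them, and a direct repeat with a spacing of 1 to 5 bases in 1, against 2.98% of all regions. Around the summits of the 25 filtered RARα peaks, a hexamer was found in 11, or 44.0%, against 36.1% of all filtered peaks, and a TCF site in 1, against 5.70%. Several regions belong to the same gene, and the letters CTTTGAA can share 4 bases with a hexamer, so these shares are descriptions of few regions.

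The rest of the Wnt pathway and the other zonated genes gave the setting, in lists that were also chosen with earlier results of these data known. In a list of 24 further Wnt pathway genes, 13 had an RXRα region within 10 kb of the start (54.2%, against 39.8% of all genes). A filtered RARα peak was found at 14 (58.3%, against 52.2%) and a co-localized pair at 7 (29.2%, against 23.5%), both shares close to the background. The median read ratio was 1.49, against 1.09 for all genes. The highest RXRα ratios of the Wnt list were at Lrp5 (154.3), a co-receptor of Wnt ligands, and at the Frizzled receptors Fzd7 (121.1) and Fzd4 (83.0). Of 12 pericentral genes of metabolism, 11 had an RXRα region, with the organic cation transporter Slc22a3 as the exception. A filtered RARα peak was found at 8 of them and a co-localized pair at 8. The highest ratios of that list were at the sterol hydroxylase Cyp27a1 (179.2), at Rgn (92.9) and at Cyp7a1 (79.0), the rate-limiting enzyme of bile acid synthesis. Of 14 periportal genes, 14 had an RXRα region, 14 a filtered RARα peak and 13 a co-localized pair, with the urea cycle gene Otc as the exception. Their highest ratios were at Asl (189.2), Pck1 (150.0) and G6pc (137.0), and Gfap was the only gene of the list from other tissues with a region or a filtered peak. The median read ratio was 2.60 in the pericentral and 4.07 in the periportal list, and of the 10 pericentral Wnt zonation genes only Glul exceeded the periportal median in this window. Within 1 kb of the start the periportal median was 4.87, which Lgr5, Tbx3, Glul and Axin2 exceeded. 

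**Figure D5:**
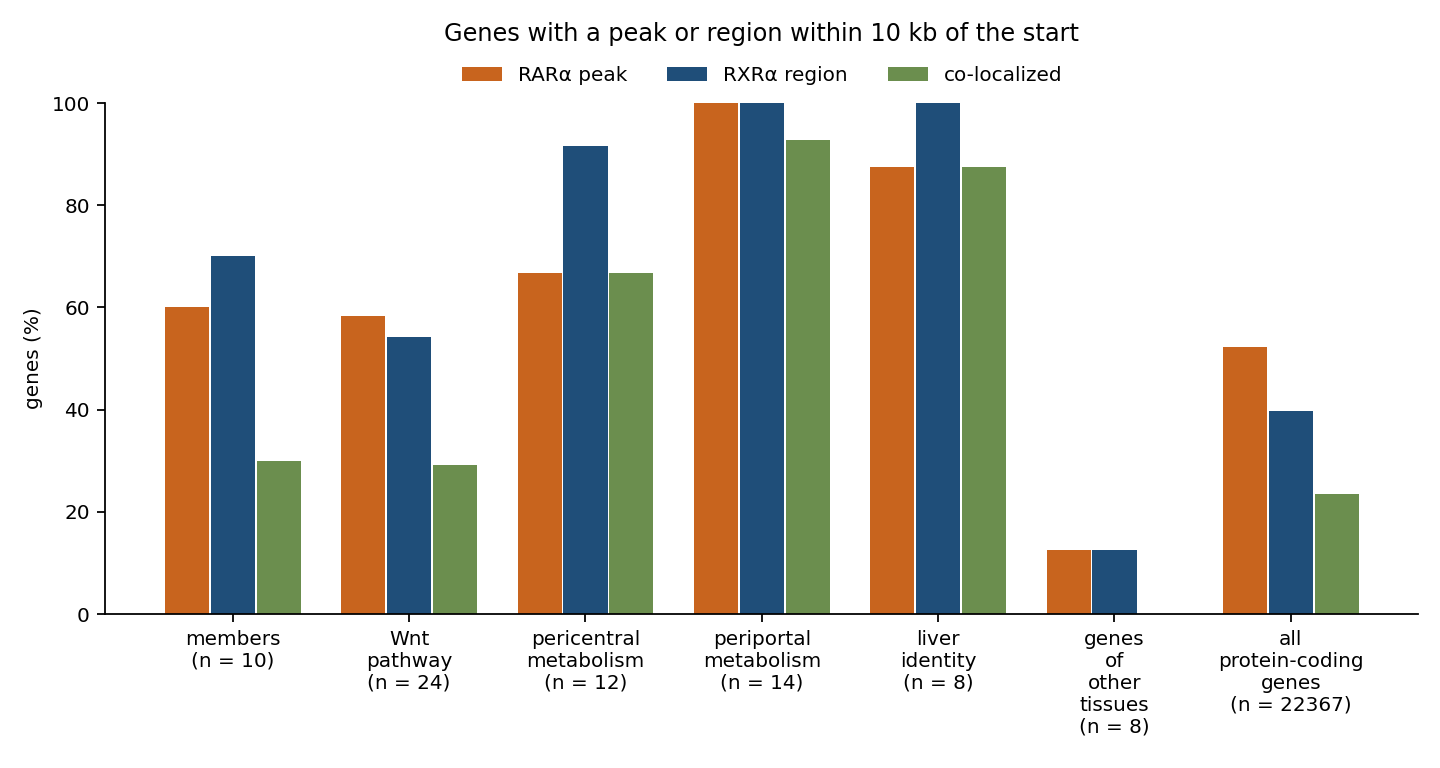
Share of genes (%) with a filtered RARα peak (orange), an RXRα region (blue) and a co-localized pair (green) within 10 kb of the gene start, for the 10 pericentral Wnt zonation genes (labelled members), the comparison lists and all protein-coding genes. Of the 10 genes 6, 7 and 3 are counted, and of the 14 periportal genes 14, 14 and 13.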

How the data were processed

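ChIP-seq was measured in 1 RXRα, 1 input and 1 RARα library. The authors aligned reads with Bowtie and called peaks with MACS, and the submitters' notes also name CASAVA 1.4. The deposited signal is whole-number coverage in 32 bp bins, whose total on every chromosome was a multiple of 5 bins per read, so reads are signal divided by 5. The deposited RARα list gives a score, on a scale not given in the sources used here, and a false discovery rate in percent, which was not used as a filter. The methods name mm10 for alignment, but the file headers name mm9, which was used throughout. RXRα regions came from tracks scaled to the same mean, with bins within 200 bp joined. The values of 10 kb, score 20, 20-fold and 25% follow the study's methods, but applying the 20-fold cut to bins with an input floor, and the overlap to the narrower interval, were choices made here. Read ratios have exact conditional binomial intervals, and duplicate reads could not be told from independent molecules. For a count of 0, a floor of 3 reads was used. For each gene, the region of highest ratio and the RARα peak of highest score were described, and for each list up to 3 genes with the highest RXRα ratio and any exception to a count. Region calling and overlap were tested on simulated data. Alternatives were other thresholds, distances, overlaps, starts and scalings. The members and lists were chosen with earlier results of these data known. Software was matplotlib 3.10.9, pysam 0.24.0, scipy 1.17.1, pandas 2.3.3 and numpy 2.4.6 under Python 3.11.15.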

Additional observations from a re-analysis of the deposited data

How the results depend on the processing

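The number of genes with an RXRα region fell from 7 to 4 at 30 times input (27.9% of all genes) and to 4 within 1 kb of the start (21.6% of all genes), and the median read ratio rose from 1.69 to 4.07 in the 1 kb window, where the median of all genes was 1.79. The other 21 of 24 recomputed counts and medians were within 1.5 times the reported values, but some rose by as much as the former fell. An RXRα region was counted at 10 genes over the body (33.9% of all genes) and from any annotated transcript start (43.6%), and at 9 against the mean input only (52.0%). A RARα peak was counted at 9 with no score threshold (67.3% of all genes), and a filtered one at 7 from any transcript start (55.1%). Of 20 recomputed ratios of single genes in the other windows, 15 lay outside the counting interval of the 10 kb window. No paired analysis was possible because there was 1 library per antibody.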
